A study of Mus musculus with 36 samples.

Results

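The 10 genes described here encode subunits of the Polycomb repressive complexes, and they were taken by name from 46603 genes counted in mouse embryonic forebrain. *Ezh1*, *Ezh2*, *Eed*, *Suz12* and *Jarid2* encode subunits of PRC2, and *Ring1*, *Rnf2*, *Bmi1*, *Cbx2* and *Cbx8* encode subunits of PRC1. The study lowered the dose of *Chd8*, a gene for a chromatin remodeller linked to autism, and sequenced mRNA from the embryonic cortex. There were 18 libraries in 6 groups of 3, and the counts of the 2 sequencing runs of each library were summed.

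At embryonic day 12.5 (E12.5) the groups were *Chd8* +/+ (wildtype), *Chd8* +/- (heterozygotes), *Chd8* neo/neo (mild hypomorphs) and *Chd8* neo/- (severe hypomorphs), with neocortex from a single embryo in each library. The neo allele carries a neomycin resistance cassette downstream of exon 3 that disturbs splicing and lowers expression, while the minus allele lacks exon 3. At E10.5 the groups were Ctrl, which the submitters describe as combining *Chd8* f/f with *Chd8* f/+ embryos, and the conditional knockout *sox1-Cre*; *Chd8* f/f (cKO), with telencephalic vesicles of pooled embryos in each library. *sox1-Cre* removes the floxed exon 3 in the early neuroepithelium and is not known to act in blood, vessels or mesenchyme. The Ctrl embryos carry floxed alleles too, and the labels give them no Cre. All embryos were C57Bl/6J, and the labels call the tissue of every library cortex.

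PRC2 methylates lysine 27 of histone H3 through EZH2 or its paralog EZH1, with EED reading the mark and SUZ12 holding the complex together. PRC1 attaches ubiquitin to histone H2A through RNF2 or its paralog RING1, and in canonical PRC1 a PCGF protein such as BMI1 and a CBX protein tie the complex to chromatin that PRC2 has marked. In the developing cortex both complexes keep genes of other lineages silent, and they take part in the timing of neurogenesis and gliogenesis.

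The E12.5 libraries held 38774591 to 61051667 counts each, and those of E10.5 held 49632937 to 68488879. At E10.5 every cKO library (59283998 to 68488879) was deeper than every Ctrl library (49632937 to 55190000). Levels are given as CPM, counts scaled to the library size after TMM scaling. *Chd8* mRNA, counted over the whole gene and so including transcripts that lack exon 3, was below its controls in each mutant group, with log2 fold changes of -0.51 ± 0.043 (SE, edgeR adjusted p = 0.000138) in heterozygotes, -0.18 ± 0.042 (SE, edgeR adjusted p = 0.0201) in mild hypomorphs, -0.67 ± 0.043 (SE, edgeR adjusted p = 8.59e-07) in severe hypomorphs and -0.50 ± 0.065 (SE, edgeR adjusted p = 0.00109) in cKO. Without wildtype replicate 2 or 3 or mild hypomorph replicate 2 the call in mild hypomorphs was lost. It was also lost with only the 2 groups in the fit, with edgeR adjusted p-values of up to 0.0987. By these whole-gene counts mild hypomorphs (203 to 213 CPM) lay above heterozygotes (165 to 170 CPM). The paper's quantitative RT-PCR of younger embryos and its Western blots at E12.5 put mild hypomorphs below heterozygotes instead. Marker genes of radial glia were abundant in all libraries, at 2087 to 3574 CPM summed over 9 genes. Neuronal markers summed to 2879 to 4247 CPM at E12.5 and to 199.3 to 367 CPM at E10.5. Replicate 2 of the heterozygotes stood apart with 1058 CPM summed over 6 mesenchyme markers, against 489.6 to 765 CPM in the other 11 libraries of E12.5.

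On GRCm38 the PRC2 members lie at chr6:47530139-47595341 (*Ezh2*, minus strand), chr11:101191115-101226463 (*Ezh1*, minus), chr7:89954656-89980983 (*Eed*, minus), chr11:79993106-80034123 (*Suz12*, plus) and chr13:44729474-44921643 (*Jarid2*, plus). The PRC1 members lie at chr1:151458004-151500955 (*Rnf2*, minus), chr17:34020792-34024680 (*Ring1*, minus), chr2:18677018-18686629 (*Bmi1*, plus), chr11:119022962-119031270 (*Cbx2*, plus) and chr11:119036305-119040969 (*Cbx8*, minus), the last 2 being neighbours on opposite strands. All values count reads over the exons of the whole gene.

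The promoters of 4 genes that the results turn on are given here as reference sequence, for the most and the least abundant member, for the member that passed the test at E10.5, and for *Phf19*, a PRC2 accessory gene described later. Each window runs 5′ to 3′ in the direction of the gene from 250 bases before to 50 bases after the RefSeq start on GRCm38.p6. Capitals mark an E2F site (TTTCCCGC, TTTCGCGC, TTTGCCGC or TTTGGCGC), a CHR element (TTTGAA or TTCGAA) or a CCAAT box (CCAAT), each on either strand.
Ezh2 (chr6:47594981-47595280, minus strand): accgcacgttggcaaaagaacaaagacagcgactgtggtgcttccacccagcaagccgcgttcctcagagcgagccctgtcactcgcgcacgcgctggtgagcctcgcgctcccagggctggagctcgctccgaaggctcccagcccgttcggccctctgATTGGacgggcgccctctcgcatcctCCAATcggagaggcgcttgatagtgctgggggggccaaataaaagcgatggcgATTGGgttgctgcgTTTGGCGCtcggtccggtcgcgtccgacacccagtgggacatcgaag
Ezh1 (chr11:101226414-101226713, minus strand): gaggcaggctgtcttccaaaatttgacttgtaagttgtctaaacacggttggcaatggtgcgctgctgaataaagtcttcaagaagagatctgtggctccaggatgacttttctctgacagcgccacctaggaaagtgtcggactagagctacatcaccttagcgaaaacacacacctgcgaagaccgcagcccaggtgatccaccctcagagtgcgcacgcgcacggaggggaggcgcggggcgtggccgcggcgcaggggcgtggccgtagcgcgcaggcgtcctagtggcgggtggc
Ring1 (chr17:34024631-34024930, minus strand): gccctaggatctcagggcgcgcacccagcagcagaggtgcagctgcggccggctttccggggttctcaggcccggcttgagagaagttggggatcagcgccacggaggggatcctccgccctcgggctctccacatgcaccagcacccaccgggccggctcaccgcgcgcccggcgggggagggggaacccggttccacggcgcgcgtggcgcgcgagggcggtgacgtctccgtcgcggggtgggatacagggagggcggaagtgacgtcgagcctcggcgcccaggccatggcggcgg
Phf19 (chr2:34913927-34914226, minus strand): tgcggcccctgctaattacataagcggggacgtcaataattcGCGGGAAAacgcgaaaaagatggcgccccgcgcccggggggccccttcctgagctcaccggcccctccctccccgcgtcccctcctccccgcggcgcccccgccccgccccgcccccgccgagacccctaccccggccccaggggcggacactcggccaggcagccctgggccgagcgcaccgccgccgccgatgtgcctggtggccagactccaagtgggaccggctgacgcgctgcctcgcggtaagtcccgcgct
The *Ezh2* window held 1 E2F site and 3 CCAAT boxes, and the *Phf19* window held 1 E2F site. The windows of *Ezh1* and *Ring1* held none of these letters. Of the 9 members with a window, 2 (*Ezh2* and *Suz12*) held an E2F site, 2 (*Eed* and *Suz12*) a CHR element and 5 a CCAAT box, where 2.26%, 19.2% and 37.4% of all 32851 windows did. These are letter matches, not measured binding sites.

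Per length of exon, *Ezh2* was the most abundant of the 10 mRNAs and *Ezh1* the least, at both ages. In the wildtype at E12.5 the mean level (RPKM, which is CPM per 1000 bases of exon, ± SD, n = 3) was 46.7 ± 2.37 for *Ezh2*, 44.4 ± 1.74 for *Rnf2*, 38.8 ± 2.30 for *Suz12*, 36.6 ± 0.846 for *Bmi1* and 34.1 ± 2.77 for *Cbx2*. It was 26.1 ± 0.468 for *Eed*, 14.1 ± 0.543 for *Jarid2*, 10.2 ± 1.80 for *Ring1*, 4.36 ± 0.278 for *Cbx8* and 2.24 ± 0.171 for *Ezh1*. *Ezh2* and *Rnf2* overlapped between libraries, as did *Suz12* with *Bmi1* and *Bmi1* with *Cbx2*, while from *Cbx2* downwards each gene lay wholly above the next. In Ctrl at E10.5 the order was *Ezh2* (55.4 ± 2.35 RPKM), *Cbx2* (48.1 ± 4.04), *Eed* (43.9 ± 1.65), *Rnf2* (40.3 ± 0.887), *Suz12* (35.01 ± 0.696), *Bmi1* (26.7 ± 0.697), *Jarid2* (18.3 ± 0.726), *Ring1* (17.99 ± 0.838), *Cbx8* (3.72 ± 0.352) and *Ezh1* (2.07 ± 0.0596). There, *Cbx2* overlapped *Eed* and *Jarid2* overlapped *Ring1*, and the other neighbours did not overlap. Per length, *Ezh2*, *Cbx2*, *Eed*, *Jarid2* and *Ring1* were higher in each Ctrl library than in each wildtype library of E12.5, and the other members were lower. The 2 tables were normalized separately, and the 2 ages differ in the tissue dissected, the pooling of embryos and the sequencing runs, so an effect of age cannot be told apart from these, and no test was made between them.

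**Figure D1:**
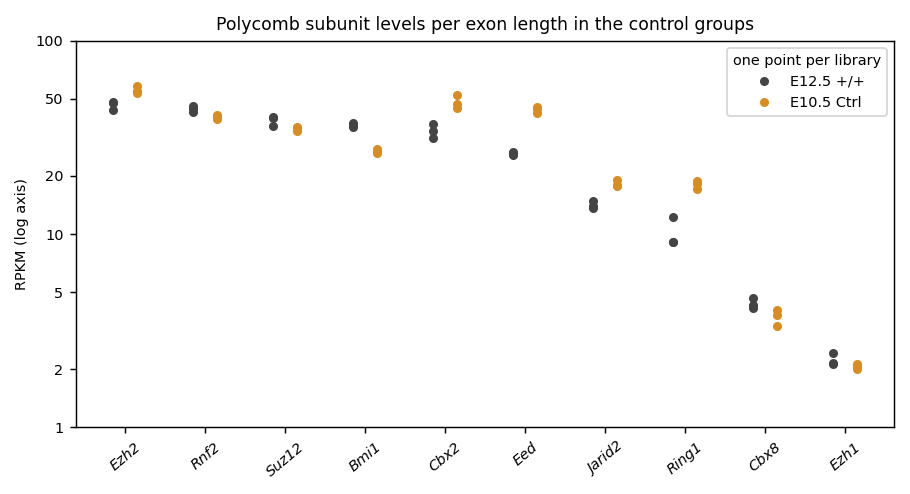
Level of each subunit mRNA per exon length (RPKM, log axis) in the 3 wildtype libraries of E12.5 (dark points) and the 3 Ctrl libraries of E10.5 (orange points), with genes ordered from left to right by their mean at E12.5. *Ezh2* lies at the top near 50 RPKM and *Ezh1* at the bottom near 2 RPKM at both ages.

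At E12.5 no PRC2 member passed the test against wildtype in any of the 3 mutant genotypes. *Ezh2*, the main methyltransferase of dividing progenitors, was at 318, 294 and 323 CPM in the 3 wildtype libraries, 308, 303 and 317 in heterozygotes, 339.9, 332 and 309 in mild hypomorphs and 324, 325 and 312 in severe hypomorphs. The 4 groups overlapped, and the log2 fold change against wildtype was -0.011 ± 0.049 (SE, 95% interval -0.11 to 0.093, edgeR adjusted p = 0.993) in heterozygotes, 0.068 ± 0.049 (SE, 95% interval -0.036 to 0.17, edgeR adjusted p = 0.413) in mild hypomorphs and 0.039 ± 0.049 (SE, 95% interval -0.065 to 0.14, edgeR adjusted p = 0.674) in severe hypomorphs. *Ezh1*, the paralog that stays on in cells that have stopped dividing, was at 18.1, 16.05 and 15.8 CPM in wildtype, 16.1, 16.4 and 14.8 in heterozygotes, 14.95, 13.4 and 17.4 in mild hypomorphs and 15.5, 16.5 and 16.3 in severe hypomorphs. Its groups also overlapped, with log2 fold changes between -0.13 in mild hypomorphs and -0.047 in severe hypomorphs.

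*Eed*, which encodes the reader of the H3K27 methyl mark, was slightly higher in every mild hypomorph (61.7, 60.9 and 60.2 CPM) than in every wildtype library (58.2, 58.8 and 56.8 CPM), but the difference did not pass the test, at 0.074 ± 0.044 (SE, 95% interval -0.021 to 0.17, edgeR adjusted p = 0.322) on the log2 scale. *Eed* was at 55.2, 55.99 and 60.4 CPM in heterozygotes and 60.2, 57.4 and 59.1 CPM in severe hypomorphs, and both groups overlapped the wildtype. *Suz12*, the scaffold subunit, ranged from 179 to 209 CPM over the 12 libraries, and its log2 fold changes were 0.038, 0.046 and 0.03 in heterozygotes, mild and severe hypomorphs, none of which passed the test. *Jarid2*, an accessory subunit that guides PRC2 to its targets, was at 132.7, 131.6 and 130.5 CPM in severe hypomorphs and at 136.0, 133.0 and 143.3 CPM in wildtype. All severe hypomorphs lay below all wildtype libraries, the nearest by less than 1 CPM, and the difference was -0.062 ± 0.077 (SE, 95% interval -0.23 to 0.11, edgeR adjusted p = 0.67) on the log2 scale. In mild hypomorphs *Jarid2* had its widest range, at 147, 164 and 126 CPM.

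Among the PRC1 genes at E12.5 the widest spread was in *Ring1*, a ubiquitin ligase of the complex, with a coefficient of variation of 14.5% over the 12 libraries. Its level was 39.7, 29.6 and 29.6 CPM in wildtype, 28.4, 34.97 and 29.4 in heterozygotes, 39.1, 41.3 and 40.1 in mild hypomorphs and 32.6, 31.1 and 30.3 in severe hypomorphs. All 3 mild hypomorphs thus lay above all heterozygotes and all severe hypomorphs, and wildtype replicate 1 lay among them while the other wildtype libraries did not. Against wildtype the log2 fold change of *Ring1* in mild hypomorphs was 0.28 ± 0.11 (SE, 95% interval 0.054 to 0.51, edgeR adjusted p = 0.117), which did not pass the threshold of 0.05, whereas DESeq2 gave an adjusted p of 0.0427. Without wildtype replicate 1 the difference was 0.43 and passed, with an edgeR adjusted p of 0.00999. In severe hypomorphs it was -0.076 ± 0.11 (SE, 95% interval -0.31 to 0.15, edgeR adjusted p = 0.713).

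*Rnf2*, the paralog of *Ring1* and the main ligase of PRC1 in embryonic cells, ranged from 176 to 199.9 CPM over the 12 libraries. Its 95% intervals against wildtype reached from -0.873% to 11.6% in heterozygotes, from -6.89% to 4.85% in mild hypomorphs and from -3.13% to 9.08% in severe hypomorphs. *Bmi1*, a PCGF subunit known for repressing the *Cdkn2a* locus and for maintaining neural stem cells, ranged from 139 to 162 CPM, with log2 fold changes of 0.079, -0.038 and 0.027. Neither gene passed the test in any genotype.

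*Cbx2* and *Cbx8* encode chromodomain subunits, which bind the methyl mark set by PRC2. *Cbx2* was at 144, 134 and 157 CPM in wildtype, 138, 151 and 143 in heterozygotes, 175, 168 and 152 in mild hypomorphs and 156, 155 and 145 in severe hypomorphs. The mild hypomorphs overlapped the wildtype through 1 library of each group, and the log2 fold change was 0.18 ± 0.063 (SE, 95% interval 0.047 to 0.32, edgeR adjusted p = 0.0884). It passed the test when wildtype replicate 3 or mild hypomorph replicate 3 was left out, with log2 fold changes of 0.25 and 0.23 and edgeR adjusted p-values of 0.0442 and 0.0269. *Cbx8* ranged from 14.9 to 17.2 CPM over the 12 libraries, and its log2 fold changes were -0.025, -0.032 and -0.0056.

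**Figure D2:**
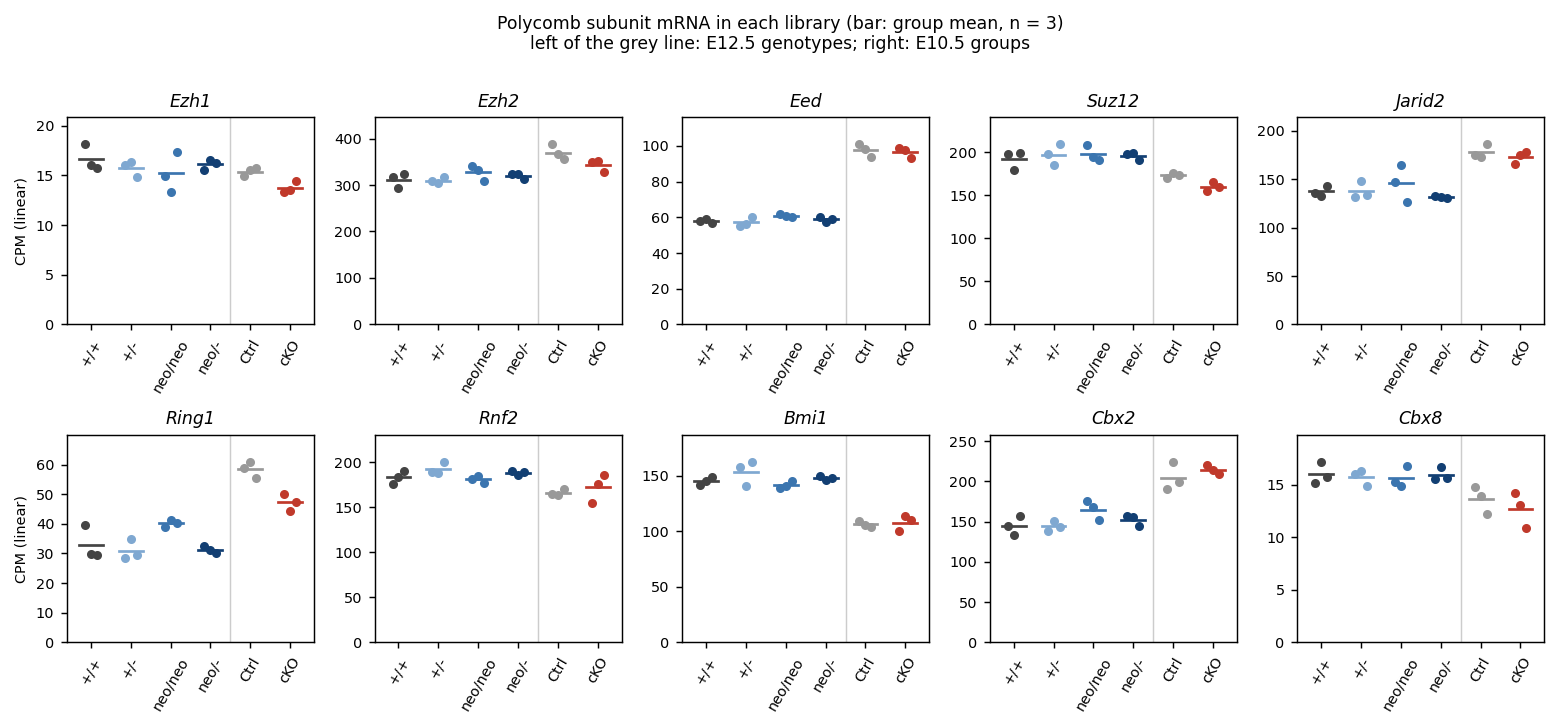
CPM (linear axis from 0) of the 10 subunit genes in each of the 18 libraries, with a bar at each group mean; the 4 genotypes of E12.5 stand left of the grey line and the 2 groups of E10.5 right of it. Most E12.5 groups overlap, *Ring1* is highest in the 3 mild hypomorphs and 1 wildtype library, and at E10.5 all 3 cKO libraries lie below all 3 Ctrl libraries for *Ring1*, *Ezh1*, *Ezh2* and *Suz12*.

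Counted over the 10 members, edgeR called 0 in heterozygotes against wildtype, where 0.0213% of the 18810 genes tested were called, 0 in mild hypomorphs (8.16% of all genes) and 0 in severe hypomorphs (11.5% of all genes). At an unadjusted p under 0.05 there were 0, 2 (*Ring1* and *Cbx2*) and 0 members, and DESeq2 called 0, 1 (*Ring1*) and 0, beside 0.0893%, 16.6% and 18.1% of the genes it tested. The median log2 fold change of the members was -0.011 in heterozygotes, 0.057 in mild hypomorphs and 0.025 in severe hypomorphs, beside 0.0012, 0.0053 and 0.0011 over all genes tested. The libraries of the mutant and wildtype groups did not overlap for 0, 1 and 1 members, where 11.4%, 26% and 33.3% of all genes did not. In severe hypomorphs the 95% intervals of all 10 members lay between -19.1% and 15.2%, and in heterozygotes between -20.2% and 13.2%. In mild hypomorphs they reached from -19.8% to 42.6%, the upper bound being that of *Ring1*. These intervals hold for each gene on its own. The 3 comparisons share the same wildtype libraries. In bulk tissue, fewer cells of a type and less RNA per cell cannot be told apart. Beside these values, the sum of 8 neuronal markers was 2879 to 3391 CPM in mild hypomorphs, 3210 to 3608 in severe hypomorphs and 3505 to 4192 in wildtype, with 2 of the 8 called lower in each hypomorph and none of them at 3 counts or fewer, and its part in the results was not tested. Of 9 radial glia markers 2 were called higher in mild hypomorphs, where their sum was 3180 to 3574 CPM beside 3111 to 3343 CPM in wildtype.

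**Figure D3:**
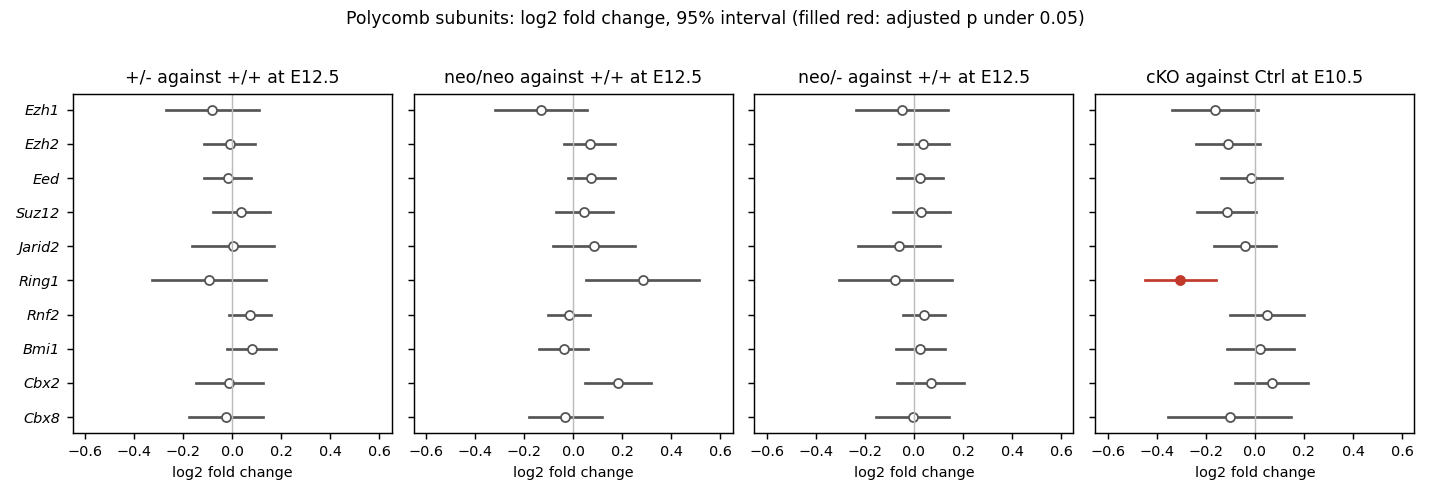
Log2 fold change (points) and 95% interval (lines) of each subunit gene against its control group, from edgeR, in 4 panels for heterozygotes, mild hypomorphs, severe hypomorphs and cKO. Filled red marks an adjusted p under 0.05, which *Ring1* in cKO alone reached among the 40 values drawn.

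Between the mutant genotypes of E12.5, edgeR again called 0 members. Mild hypomorphs against heterozygotes gave 0 of 10 (5.28% of all genes), severe hypomorphs against heterozygotes 0 of 10 (5.43%), and severe against mild hypomorphs 0 of 10 (0.0159%). At an unadjusted p under 0.05 there were 4 (*Ring1*, *Cbx2*, *Bmi1* and *Rnf2*), 0 and 1 (*Ring1*) members, and DESeq2 called 1 (*Ring1*), 0 and 0, beside 11.9%, 12.3% and 0.167%. The log2 fold change of *Ring1* was 0.38 ± 0.11 (SE, 95% interval 0.15 to 0.61, edgeR adjusted p = 0.0588) in mild hypomorphs against heterozygotes and -0.36 ± 0.11 (SE, 95% interval -0.59 to -0.13, edgeR adjusted p = 0.484) in severe against mild hypomorphs, with no overlap of libraries in either pair. *Cbx2* was higher in mild hypomorphs than in heterozygotes in 3 of 3 libraries (0.20 ± 0.064, SE, edgeR adjusted p = 0.0866), and *Rnf2* was lower in 3 of 3 (-0.09 ± 0.04, SE, edgeR adjusted p = 0.19). Groups without overlap were found for 3, 0 and 3 members, beside 25.5%, 30.9% and 15.2% of all genes. Without heterozygote replicate 2, the library with the high mesenchyme markers, edgeR called *Ring1* (0.47, adjusted p = 0.0346) and *Bmi1* (-0.18, adjusted p = 0.0328) between mild hypomorphs and heterozygotes. *Ring1* was also called there without wildtype replicate 1 or 2, which enter the shared estimate of spread, and *Cbx2* without mild hypomorph replicate 3.

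In the conditional knockout at E10.5, *Ring1* mRNA was lower than in Ctrl and passed the test. Its level was 58.9, 60.7 and 55.4 CPM in Ctrl and 49.9, 44.3 and 47.5 CPM in cKO, without overlap, and the log2 fold change was -0.30 ± 0.066 (SE, 95% interval -0.45 to -0.16, edgeR adjusted p = 0.0154). It was the 1 member called of 10, beside 11.4% of the 18435 genes tested, and also the 1 member at an unadjusted p under 0.05 and the 1 that DESeq2 called, beside 18.3% of the genes DESeq2 tested. Leaving out cKO replicate 2 or 3 ended the call, with edgeR adjusted p-values of 0.101 and 0.0554 and log2 fold changes of -0.26 and -0.31.

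Further members were lower in every cKO library than in every Ctrl library without passing the test. *Suz12* was at 169, 176 and 174 CPM in Ctrl and 155, 165 and 159 in cKO (-0.12 ± 0.054, SE, 95% interval -0.23 to 0.003, edgeR adjusted p = 0.195). *Ezh2* was at 387, 366 and 357 CPM in Ctrl and 350.3, 351 and 328 in cKO (-0.11 ± 0.06, SE, 95% interval -0.24 to 0.023, edgeR adjusted p = 0.27). *Ezh1* was at 14.9, 15.5 and 15.7 CPM in Ctrl and 13.3, 13.5 and 14.4 in cKO (-0.16 ± 0.081, SE, 95% interval -0.34 to 0.015, edgeR adjusted p = 0.222). With *Ring1*, groups did not overlap for 4 of 10 members, all with cKO lower. Of all genes tested, 32.2% did not overlap, with higher and lower counted together. The other members overlapped between the groups. *Eed* stood at -0.014 on the log2 scale, *Jarid2* at -0.042, *Rnf2* at 0.049, *Bmi1* at 0.022, *Cbx2* at 0.068 and *Cbx8* at -0.10. The median of the 10 was -0.073, beside -0.0019 over all genes. Mesenchyme markers, summed over 6 genes, were 671 to 748 CPM in Ctrl and 845 to 995 CPM in cKO, with 2 of the 6 called higher and none at 3 counts or fewer. Over 5 microglia markers the sums were 14.1 to 17.2 CPM in Ctrl and 18.8 to 21.01 CPM in cKO, with 1 called higher, and over 4 midbrain and hindbrain markers 18.4 to 26.96 and 12.3 to 15.4 CPM, with 1 of the 2 tested called lower. The part of cell composition in these values was not tested.

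Paralogs that occupy the same place in a complex were also set against each other within each library. *Ezh2* exceeded *Ezh1* per length 20.9-fold in wildtype (geometric mean of 3 libraries, 19.6 to 22.8), 21.9-fold in heterozygotes, 24.1-fold in mild hypomorphs, 22.2-fold in severe hypomorphs, 26.8-fold in Ctrl and 27.8-fold in cKO. *Rnf2* exceeded *Ring1* 3.48 to 5.06-fold in wildtype, 4.24 to 5.34-fold in heterozygotes, 3.45 to 3.66-fold in mild hypomorphs and 4.58 to 4.90-fold in severe hypomorphs. At E10.5 it did so 2.11 to 2.42-fold in Ctrl and 2.44 to 3.12-fold in cKO. The cKO libraries thus all had more *Rnf2* per *Ring1* than the Ctrl libraries, by 0.35 on the log2 scale (two-sided exact permutation test, p = 0.1, the smallest that 3 against 3 allows). *Cbx2* exceeded *Cbx8* 7.82-fold in wildtype, 9.09-fold in mild hypomorphs, 12.9-fold in Ctrl and 14.6-fold in cKO. No ratio could reach p under 0.05 in this design, and the smallest value after Benjamini-Hochberg adjustment over the 21 exact permutation tests was 0.656.

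Across the 12 libraries of E12.5, the genes whose log2 CPM followed *Ezh2* most closely were *Racgap1* (Pearson r = 0.970), *Car5a* (r = 0.948) and *Foxm1* (r = 0.946), a description over libraries of 4 genotypes that also differ in depth. *Racgap1* and *Foxm1*, which act in cytokinesis and in the transcription of mitotic genes, were at 256 to 309.5 and 154 to 224 CPM, while *Car5a* was barely detected at 0.212 to 0.496 CPM. The *Racgap1* promoter window held a CHR element and a CCAAT box, which 19.2% and 37.4% of all windows held. A CCAAT box also lay in the *Car5a* window, and the *Ezh2* window held no CHR element. The genes nearest to *Ezh1* were *9530052E02Rik* (r = 0.899), *Tecpr1* (r = 0.883) and *Mog* (r = 0.878), of which *Tecpr1* alone exceeded 5 CPM, at 46.4 to 52.1 CPM. The *Tecpr1* window held a CCAAT box as well.

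The Polycomb machinery holds further genes, and 42 of them were listed by role. Of the 41 tested at E12.5, edgeR called 0 in heterozygotes, with 0 at an unadjusted p under 0.05 and 0 by DESeq2. In mild hypomorphs 1 was higher and 6 were lower, and in severe hypomorphs 1 was higher and 9 were lower, beside 3.71% and 4.45% of all genes called higher and lower in the former and 5.48% and 5.99% in the latter. At an unadjusted p under 0.05 there were 15 and 17 of the 41, beside 4746 and 4991 of all 18810 genes. DESeq2 called 9 and 15, beside 16.6% and 18.1% of the genes it tested. The count in mild hypomorphs fell from 7 to 2 without wildtype replicate 3 or mild hypomorph replicate 2 and to 3 without wildtype replicate 2 or mild hypomorph replicate 1, and the count in severe hypomorphs from 10 to 6 without wildtype replicate 1 or 3. By role, the calls in severe hypomorphs fell on 4 of 9 other PRC2 subunits, 2 of 8 other canonical PRC1 subunits, 3 of 16 variant PRC1 subunits and 1 of 8 enzymes that remove Polycomb marks. The median log2 fold changes of these lists were -0.058, -0.17, -0.058 and -0.094, beside 0.0011 over all genes. Markers of red blood cells, summed over 5 genes, were 3962 to 6294 CPM in severe hypomorphs and 2865 to 3508 CPM in wildtype, with 2 of the 5 called higher and none at 3 counts or fewer. Over 7 markers of the ventral telencephalon the sums were 532 to 650.1 CPM in severe hypomorphs, 566 to 665 in mild hypomorphs and 665 to 696 in wildtype, with 1 of the 7 called lower in each hypomorph. Over 10 markers of proliferating cells they were 3804 to 4012 CPM in severe hypomorphs, 3755 to 4130 in mild hypomorphs and 3503 to 3789 in wildtype, with 0 and 1 called higher. The part of these markers in the results, like that of the neuronal markers given above, was not tested.

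The largest decrease among the machinery genes called in severe hypomorphs was in *Phf19* (chr2:34893757-34914026, minus strand), which encodes a Polycomb-like accessory subunit that brings PRC2 to CpG-rich DNA and whose promoter is shown above. *Phf19* was at 9.14, 7.53 and 8.55 CPM in wildtype, 7.74, 6.60 and 7.42 in heterozygotes, 6.12, 5.67 and 6.03 in mild hypomorphs and 5.26, 5.21 and 3.64 in severe hypomorphs. Neither hypomorph group overlapped the wildtype, and the log2 fold change was -0.50 ± 0.13 (SE, 95% interval -0.77 to -0.23, edgeR adjusted p = 0.0277) in mild and -0.84 ± 0.13 (SE, 95% interval -1.11 to -0.56, edgeR adjusted p = 0.00122) in severe hypomorphs. In heterozygotes it was -0.21 ± 0.13 (SE, 95% interval -0.48 to 0.054, edgeR adjusted p = 0.832), with overlap. Severe hypomorphs were below heterozygotes (-0.62 ± 0.13, SE, edgeR adjusted p = 0.0155), a call that ended without heterozygote replicate 1 or with the second sequencing run alone, while the difference between severe and mild hypomorphs did not pass (-0.33 ± 0.13, SE, edgeR adjusted p = 0.54). The call in mild hypomorphs ended without wildtype replicate 1 or 3, without mild hypomorph replicate 1 or 2, or with the second sequencing run alone, with log2 fold changes between -0.53 and -0.45, whereas the call in severe hypomorphs against wildtype held in all 21 alternatives.

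*Epop* (chr11:97627389-97629702, minus strand), which encodes a PRC2 accessory subunit found in complexes without JARID2, rose in both hypomorphs. It was at 13.1, 13.002 and 13.9 CPM in wildtype, 16.5, 13.7 and 15.1 in heterozygotes, 20.3, 23.6 and 19.3 in mild hypomorphs and 18.3, 19.9 and 16.4 in severe hypomorphs. The log2 fold change was 0.66 ± 0.093 (SE, 95% interval 0.46 to 0.86, edgeR adjusted p = 0.00188) in mild hypomorphs and 0.45 ± 0.093 (SE, 95% interval 0.25 to 0.65, edgeR adjusted p = 0.00733) in severe hypomorphs, and neither group overlapped the wildtype. With the second sequencing run alone the call in severe hypomorphs ended, at 0.34 (edgeR adjusted p = 0.0682). *Mtf2*, another Polycomb-like gene, was lower in mild hypomorphs (-0.14 ± 0.036, SE, edgeR adjusted p = 0.0288) and in severe hypomorphs (-0.13 ± 0.036, SE, edgeR adjusted p = 0.0382). These calls held in 15 and 9 of 21 alternatives and were lost in both with the replicate block, the second run alone, only the 2 groups in the fit, or without wildtype replicate 2 or 3. The call in mild hypomorphs was also lost without mild hypomorph replicate 2, and that in severe hypomorphs with no filter, the sex-linked term, the first run alone, or without wildtype replicate 1, heterozygote replicate 3 or severe hypomorph replicate 1 or 2, with adjusted p-values of up to 0.121 and 0.137. Of the genes for the PALI subunits, *Lcor* fell in severe hypomorphs (-0.34 ± 0.065, SE, edgeR adjusted p = 0.00477) and *Lcorl* in mild hypomorphs (-0.16 ± 0.041, SE, edgeR adjusted p = 0.0314). The *Lcor* call held in all 21 alternatives. That of *Lcorl* held in 13 and was lost with the replicate block, the sex-linked term, the first run alone, only the 2 groups in the fit, or without wildtype replicate 2 or 3 or mild hypomorph replicate 1 or 2, with adjusted p-values of up to 0.153. *Mtf2* and *Lcorl* share 6.93% and 5.01% of their exon bases with *Tmed5* and *Ncapg* on the opposite strand, and reads were counted without strand at E12.5, so this part of the counts cannot be assigned.

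Among the variant PRC1 genes, *Mga*, which encodes a DNA-binding scaffold of the PCGF6 complex, was lower in every hypomorph library than in every wildtype library, at 164, 173 and 164 CPM in wildtype, 149.8, 146 and 143 in mild hypomorphs and 140.0, 139.8 and 139 in severe hypomorphs. Its log2 fold change was -0.19 ± 0.034 (SE, edgeR adjusted p = 0.00637) in mild and -0.26 ± 0.034 (SE, edgeR adjusted p = 0.000446) in severe hypomorphs, and these calls held in 20 and 21 of 21 alternatives, the exception being a fit of only the 2 groups. *Auts2*, an autism-linked gene whose protein turns a PCGF5 complex towards activation, fell in severe hypomorphs (-0.27 ± 0.056, SE, edgeR adjusted p = 0.00708), a call that held in all 21 alternatives. *Asxl3*, a partner of the H2A deubiquitinase BAP1, fell in mild hypomorphs (-0.18 ± 0.053, SE, edgeR adjusted p = 0.0473) and in severe hypomorphs (-0.32 ± 0.053, SE, edgeR adjusted p = 0.00193). The *Asxl3* call in severe hypomorphs held in all 21 alternatives, but that in mild hypomorphs held in 7. It was lost with the replicate block, the sex-linked term, either run alone, only the 2 groups in the fit, or without any 1 of the wildtype or mild hypomorph libraries, heterozygote replicate 1 or 3 or severe hypomorph replicate 1, with adjusted p-values of up to 0.159. Against heterozygotes 8 machinery genes were called in mild hypomorphs, beside 2% of all genes higher and 3.28% lower. The 3 higher ones were *Cbx7* (0.43 ± 0.12, SE, edgeR adjusted p = 0.0477), *Epop* (0.48 ± 0.092, SE, edgeR adjusted p = 0.0165) and *Bap1*, the H2A deubiquitinase gene itself (0.13 ± 0.034, SE, edgeR adjusted p = 0.0453), and the 5 lower ones included *Lcorl* (-0.20 ± 0.041, SE, edgeR adjusted p = 0.0198). The *Bap1* call held in 3 of 21 alternatives, that of *Epop* in 18 and that of *Lcorl* in 17. Against heterozygotes 8 were called in severe hypomorphs, all lower (3.25% of all genes, with 2.18% higher), with *Asxl3* (-0.35 ± 0.053, SE, edgeR adjusted p = 0.00341) and *Mga* (-0.19 ± 0.034, SE, edgeR adjusted p = 0.00702) at the smallest adjusted p-values. This count fell to 3 without heterozygote replicate 1 or severe hypomorph replicate 1, and to 4 and 5 without severe hypomorph replicates 3 and 2. With the replicate block, which treats same-numbered libraries as matched although the labels give no pairing, 2 machinery genes were called in mild hypomorphs against heterozygotes. These were *Epop* and *Lcorl*. Without mild hypomorph replicate 1 or 2 the count there was 0, without heterozygote replicate 1 it was 1, and without any 1 of the other libraries that moved it by over 1.5 times it was 2 or 3. Against heterozygotes, 18 machinery genes in mild and 16 in severe hypomorphs had an unadjusted p under 0.05, beside 4369 and 4232 of all 18810 genes. DESeq2 called 10 and 11 there, beside 11.9% and 12.3% of the genes it tested. Between severe and mild hypomorphs edgeR called 0 of 41 (0.0106% of all genes were higher and 0.00532% lower), with 9 at an unadjusted p under 0.05 and 0 by DESeq2.

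**Figure D4:**
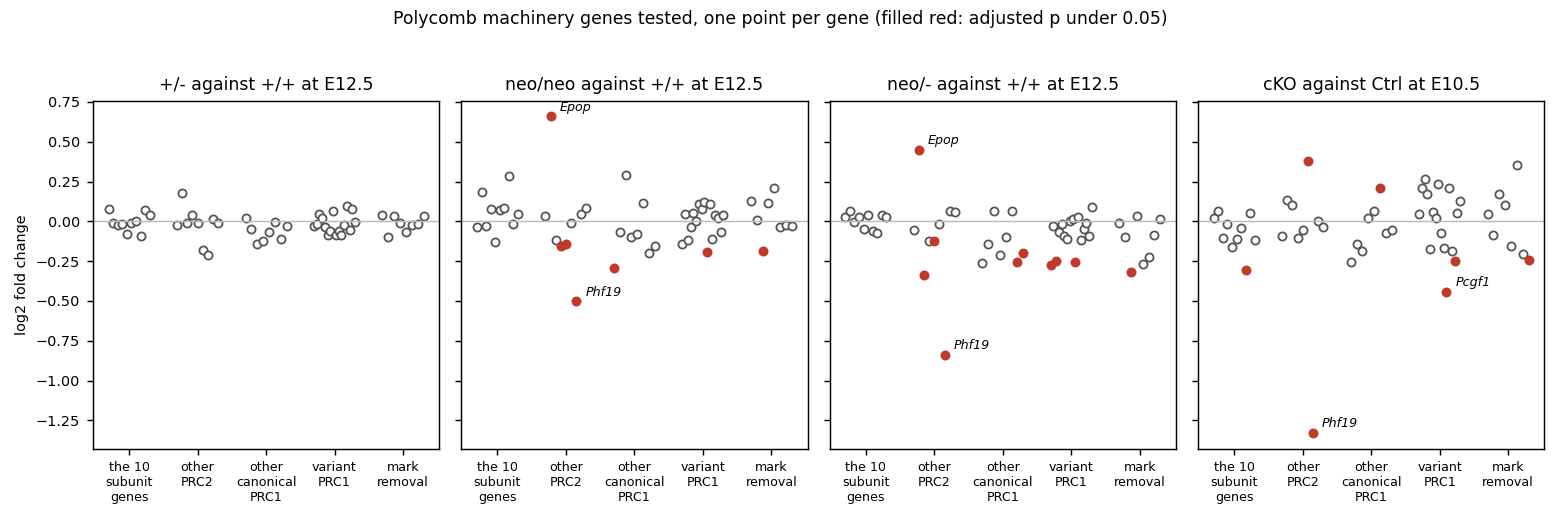
Log2 fold change of each tested Polycomb machinery gene (1 point per gene, filled red where the edgeR adjusted p was under 0.05), by role, in the 4 comparisons with a control group; called genes beyond 0.4 in either direction are named. The 10 subunit genes in the first column hold 1 called gene, *Ring1* in cKO at -0.30, and *Phf19* lies lowest in both hypomorphs and in cKO.

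At E10.5 edgeR called 6 of 41 machinery genes in cKO, 2 higher and 4 lower, beside 5.75% and 5.7% of all genes. At an unadjusted p under 0.05 there were 17, beside 5049 of all 18435 genes, and DESeq2 called 11, beside 18.3% of the genes it tested. *Phf19* was again the lowest, at 5.39, 4.62 and 5.76 CPM in Ctrl and 2.56, 1.86 and 1.87 CPM in cKO, a log2 fold change of -1.33 ± 0.16 (SE, 95% interval -1.67 to -0.99, edgeR adjusted p = 0.000608). These libraries share no control with those of E12.5, and the call held in all 14 alternatives. *Phf1*, the remaining Polycomb-like gene, was higher in every cKO library, at 16.3, 14.5 and 13.9 CPM in Ctrl and 20.3, 18.99 and 18.8 in cKO (0.38 ± 0.087, SE, edgeR adjusted p = 0.0192). The other higher gene was *Phc2*, which encodes a Polyhomeotic subunit of canonical PRC1 (0.21 ± 0.059, SE, edgeR adjusted p = 0.0425). *Mtf2* was at -0.054 and *Epop* at 0.13 on the log2 scale, and neither passed the test.

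Of the 16 variant PRC1 genes tested in cKO, 2 were called lower and 0 higher, beside 5.7% and 5.75% of all genes. The median log2 fold change of this list was 0.05, beside -0.0019 over all genes. *Pcgf1*, at the core of the complex that KDM2B brings to CpG islands, was at 18.1, 15.9 and 14.8 CPM in Ctrl and 13.3, 12.1 and 10.6 in cKO (-0.44 ± 0.11, SE, edgeR adjusted p = 0.0267). *Pcgf6*, the PCGF subunit that works with MGA, was at 57.8, 64.4 and 58.8 CPM in Ctrl and 52.7, 49.5 and 49.9 in cKO (-0.25 ± 0.063, SE, edgeR adjusted p = 0.0283). *Usp16*, an H2A deubiquitinase, was at 60.2, 60.01 and 59.3 CPM in Ctrl and 50.5, 51.4 and 49.99 in cKO (-0.24 ± 0.054, SE, edgeR adjusted p = 0.018). None of these 3 passed the test in a hypomorph at E12.5, where their log2 fold changes lay between -0.031 and 0.11; whether the effect differs between the ages was not tested. Leaving out cKO replicate 2 or cKO replicate 3 left *Phf19* as the 1 machinery gene called, and without Ctrl replicate 3 *Phf19* and *Pcgf1* alone were called. The *Phf1* call was also lost without cKO replicate 1 and with the second run alone, that of *Pcgf1* without Ctrl replicate 1 and that of *Pcgf6* without Ctrl replicate 2. Of 14 alternatives, 9 kept the call of *Phf1*, 11 that of *Pcgf1*, 10 that of *Pcgf6* and 11 that of *Usp16*. In the other direction, without Ctrl replicate 2 the count of machinery genes called rose to 10.

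**Figure D5:**
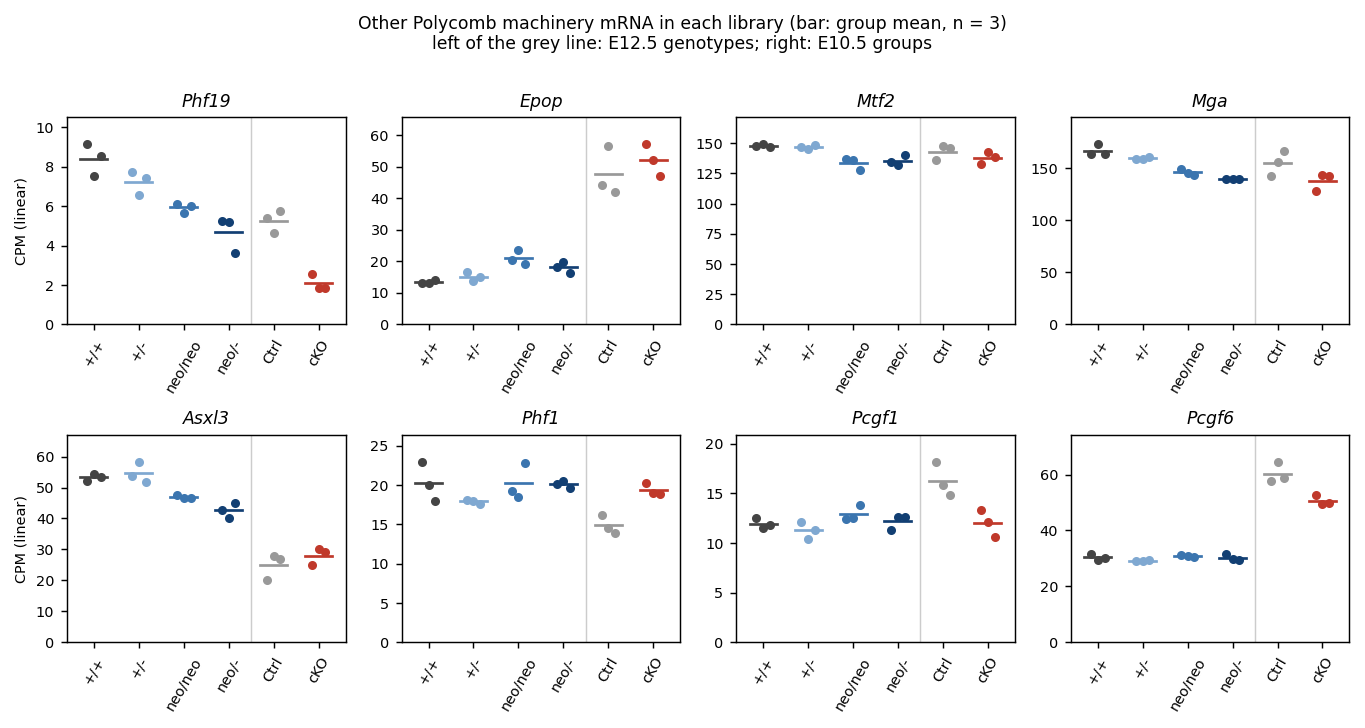
CPM (linear axis from 0) of 8 further Polycomb machinery genes in each of the 18 libraries, with a bar at each group mean; E12.5 genotypes stand left of the grey line and E10.5 groups right of it. *Phf19* ranges from 7.53 to 9.14 CPM in wildtype and from 3.64 to 5.26 CPM in severe hypomorphs, and from 4.62 to 5.76 CPM in Ctrl and from 1.86 to 2.56 CPM in cKO.

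Known target genes of Polycomb were also counted. The 39 Hox genes, classical Polycomb targets that are off anterior to the hindbrain, summed to 0.182 to 0.455 CPM per library at E12.5 and to 0.248 to 0.472 CPM at E10.5, and none had enough counts to be tested. At E12.5, 35 of them had 3 counts or fewer in every library, and at E10.5, 36. *Cdkn2a*, a cell cycle inhibitor gene that BMI1 is known to repress, had at most 3 counts in any of the 18 libraries.

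Of 30 other genes known as Polycomb targets outside the forebrain, 18 were tested at E12.5 and 17 at E10.5. At E12.5 edgeR called 0 in each comparison, with 0 to 2 at an unadjusted p under 0.05, and DESeq2 called 1, *Bmp6*, in mild hypomorphs against wildtype and against heterozygotes and 0 elsewhere. In cKO 2 were higher and 0 lower (5.75% and 5.7% of all genes), *Lmx1b* and *Tbx15*, transcription factor genes of dorsal midline, limb or craniofacial tissue. At an unadjusted p under 0.05 there were 6 of the 17 in cKO, beside 5049 of all 18435 genes. DESeq2 called 3, beside 18.3% of the genes it tested. *Lmx1b* was at 14.8, 18.95 and 18.8 CPM in Ctrl and 25.6, 23.6 and 26.6 in cKO (log2 fold change 0.53 ± 0.10, SE, edgeR adjusted p = 0.00958), and *Tbx15* at 8.73, 8.80 and 8.91 CPM in Ctrl and 13.3, 10.8 and 18.4 in cKO (0.68 ± 0.17, SE, edgeR adjusted p = 0.0368). Neither overlapped between the groups, and the mesenchyme markers given above were higher in the same cKO libraries; their part in these 2 values was not tested. The median over the tested genes of this list was 0.40 in heterozygotes against wildtype and -0.23 without heterozygote replicate 2, the library with the high mesenchyme markers. Against wildtype the median was 0.087 in mild and 0.14 in severe hypomorphs. With libraries left out it was -0.15 to 0.13 in mild and 0.031 to 0.18 in severe hypomorphs. With the sex-linked term the median in severe hypomorphs was 0.014. In cKO it was 0.29, and 0.13 to 0.59 with libraries left out, beside -0.0019 over all genes. The part of the mesenchyme markers in the cKO median was not tested.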

How the data were processed

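Poly(A)-selected RNA of 18 libraries was sequenced as read pairs. Per the file headers and the submitters' processing notes, the authors checked reads with FastQC 0.11.2, trimmed them with Trim Galore 0.4.1, aligned them with TopHat2 2.1.0 to GRCm38 and counted fragments per gene with featureCounts 1.5.0. The counts the authors deposited were raw, with 36 columns, each 1 run of 1 library. All 36 were used, with the 2 runs of a library summed. The E12.5 counting ignored strand and the setting for E10.5 is not given in the sources used here, so reads of a gene and of one overlapping it cannot be told apart. Such shared exon bases made up 2.61% of *Ezh2*, 10.6% of *Eed*, 3.60% of *Suz12* and 3.83% of *Rnf2*. They also made up 2.03% of *Usp16*, shared with *Cct8*, and 5.12% of *Chd8*, shared with *Gm26590*.

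Each age was fitted on its own with edgeR 4.0.16 (R 4.3.3, TMM scaling, filterByExpr, quasi-likelihood test), with all groups of an age in 1 fit. Genes at a Benjamini-Hochberg adjusted p under 0.05 over all genes tested were called. CPM used TMM library sizes and RPKM the exon length in the files. The study's methods say that replicates of a genotype came from different litters, and p-values measure the spread between these embryos or pools. Each SE rests on the spread between libraries as well as on the counts. DESeq2 1.42.0, other scalings, no filter, each run, each library left out, a replicate block and a term for sex-linked expression were alternatives. That term was the log2 ratio of *Xist* to Y-linked genes, and the groups were not balanced in it. At E12.5 it was above 0 only in wildtype replicate 3, heterozygote replicate 1 and mild hypomorph replicates 1 and 2. At E10.5 it was 10.8, -6.28 and 10.5 in the Ctrl pools and 3.94, 2.39 and 3.02 in the cKO pools. The functions were tested on simulated data whose known changes were larger than those of the members. Whether changes as small as those of the members would be detected was not tested. Between +/- and neo/neo, the deviations of same-numbered libraries correlated over 0.1 in all 3 pairs (0.108 to 0.199), and no other groups met this. The labels give no pairing across genotypes, and whether these weak correlations reflect one was not tested. Of 46603 gene IDs, 46005 matched a symbol. Members and lists were chosen with earlier results of these data known. Named were all members, *Chd8*, up to 5 called machinery genes with the smallest adjusted p in each comparison, and the 3 genes most like *Ezh2* and *Ezh1*. *Epop* in severe hypomorphs, *Mtf2* in severe hypomorphs, *Asxl3* in mild hypomorphs, *Cbx7*, *Phc2*, *Bmp6*, *Lmx1b*, *Tbx15* and the genes named at values that did not pass were added after their values were seen.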

Additional observations from a re-analysis of the deposited data

How the results depend on the processing

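Of 1400 member fold changes recomputed under alternatives, 11 passed the threshold only under the alternative, 2 lost it (*Ring1* in cKO) and 0 called values reversed. The others kept their side of it, 19 of them shifting by more than their SE. DESeq2 called 1 member in mild hypomorphs against wildtype and 1 against heterozygotes, and the first sequencing run alone gave 1 in the latter. With libraries left out, members called ranged from 0 to 1 in mild hypomorphs against wildtype, 0 to 2 against heterozygotes and 0 to 1 in cKO. With the replicate block the members called were the same in number in all 7 comparisons, 1 in cKO and 0 elsewhere.

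Counts of the other machinery genes depended more on the processing. In cKO 6 became 11 with DESeq2 and 12 with the replicate block (replicate numbers are not known to pair the samples), and 1 to 10 with libraries left out. In severe hypomorphs libraries left out gave 6 to 13 against wildtype and 3 to 10 against heterozygotes. In mild hypomorphs against wildtype 7 became 4 with the sex-linked term, 4 and 3 with the first and second run alone, 2 with only the 2 groups in the fit, and 2 to 7 with libraries left out. Against heterozygotes 8 became 5 without a filter, 2 with the replicate block, 2 with the sex-linked term, 2 with the first run alone, 0 with only the 2 groups in the fit, and 0 to 8 with libraries left out. The log2 ratio of *Rnf2* to *Ring1* between severe and mild hypomorphs, 0.42, was 0.37 and 0.47 with the first and second run alone. The cause of these shifts was not tested. For a member that was not called, true differences up to the bounds of its 95% interval were not excluded with 3 libraries a group.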
